A study of Mus musculus with 35 samples.

Results

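Motile cilia are the beating organelles of the airway's ciliated cells, and their core, the axoneme, is a ring of microtubule doublets around a central pair. Outer and inner dynein arms on the doublets provide the force. Radial spokes, a molecular ruler, nexin links and the central pair apparatus set the spacing and the waveform, and tektin filaments run along the doublet wall. The genes of these parts are switched on together when a cell becomes multiciliated, with multicilin (Mcidas) early in the programme and the forkhead factor Foxj1 and the regulatory factor X proteins, among them Rfx2 and Rfx3, acting on the axonemal genes through promoter elements that include the X-box. In the lung such cells line the conducting airways and move mucus, and the alveoli have none.

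Described here are 42 motile cilia genes, chosen by name and all measured, of 19938 genes in the whole series. For each gene the probe set with 1 gene symbol and the highest mean over all arrays was taken. The arrays read RNA of whole lavaged lung from adult male C57BL/6J mice, an inbred strain, weighing 20 to 25 g, with 35 arrays in 5 groups, each labelled a biological replicate. High stretch hypercapnia (10 arrays) was 3 h of ventilation at a tidal volume of about 35 to 40 mL/kg, peak inspiratory pressure 27 cmH2O, positive end-expiratory pressure 0 cmH2O and 30 to 35 breaths per minute, on gas with an oxygen fraction of 0.75 and a CO2 fraction of 0.12, balanced with nitrogen. High stretch normocapnia (10 arrays) used the same settings with a CO2 fraction of 0. Low stretch hypercapnia (5 arrays) was 3 h at 10 mL/kg, end-expiratory pressure 2 cmH2O and 135 breaths per minute on room air with a CO2 fraction of 0.12. Low stretch normocapnia (5 arrays) used those settings on room air alone, and non-ventilated mice (5 arrays) breathed room air spontaneously. High and low stretch therefore differed in tidal volume, end-expiratory pressure, rate and oxygen at once, and these cannot be told apart. The series asks by its title how hypercapnia, a raised level of CO2, bears on injury of the lung by the ventilator.

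All values are log2 signals, so that a difference of 1 is a doubling, and a log2 change is the difference of 2 group means. A gene was called when its Benjamini-Hochberg adjusted p over all 19938 genes, from limma fitted to all 35 arrays, was under 0.05. Array medians lay between 6.96 and 7.05, and lung markers were present throughout, with the alveolar surfactant gene Sftpc between 13.94 and 14.10 and the club cell gene Scgb1a1 between 13.60 and 13.85 over the 35 arrays. Of the 42 genes, 38 had 1 probe set and 4 had more, and their levels in all groups appear in the map of deviations from the non-ventilated mean.

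Promoter sequence is shown first because many of the listed genes, though not all, hold an element there that their selection by name did not use. RefSeq's promoter table (GRCm38.p6, 250 bases before to 50 after each start) held 36 of the 42 genes, and Dnah3, Foxj1, Rsph1, Rsph4a, Stk33 and Tppp3 were not matched. A hexamer of the X-box, searched as GTTGCC on both strands, occurred in 19 of these 36 promoters (52.8%), against 23 of 57 promoters of other axoneme genes (40.4%) and 12.7% of 27025 promoters, 1 per gene. The full palindromic X-box occurred in 0 of the 36 and in 0.13% of all promoters. The forkhead letters TGTTTAC were found in 1 of 36, or 2.78%, against 3.55% of all. A looser pair, GTTGCC followed after 0 to 4 bases by GNAAC and chosen after the hexamer windows had been read, occurred in 7 of 36 promoters (19.4%), in 5.26% of the other axoneme promoters and in 0.947% of all. Its 7 windows are printed in the direction of the hexamer, which stands in capitals, and show the second element in lower case to its right.
Rfx2, chr17:56831107-56831129, minus strand: taaccGTTGCCgggcgcaacgcc
Dnaic2, chr11:114727381-114727403, minus strand: taccaGTTGCCtagcaaccctgg
Dynlrb2, chr8:116504959-116504981, plus strand: gcctgGTTGCCtagcaacggggg
Spag16, chr1:69826862-69826884, plus strand: aacgcGTTGCCgtagtaactgcg
Hydin, chr8:110266952-110266974, minus strand: catctGTTGCCacagcaaccgca
Tekt2, chr4:126325700-126325722, plus strand: ctctgGTTGCCgagcaaccgccc
Tekt4, chr17:25471586-25471608, minus strand: tcctgGTTGCCtaaggaacattg

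Among the genes with a promoter in the table, the hexamer was present in 11 of the 20 that were called lower at high stretch in normocapnia, in the 1 called higher (Rfx2) and in 7 of the 15 not called. The 4 genes of this table with the smallest p in that comparison, Fam216b, Ankub1, Kcnrg and Dnah12, had no such hexamer in their 300 bases. The promoters of the first 2 are shown in gene direction, on the minus strand at chr14:78088958-78089257 and chr3:57692488-57692787.
Fam216b: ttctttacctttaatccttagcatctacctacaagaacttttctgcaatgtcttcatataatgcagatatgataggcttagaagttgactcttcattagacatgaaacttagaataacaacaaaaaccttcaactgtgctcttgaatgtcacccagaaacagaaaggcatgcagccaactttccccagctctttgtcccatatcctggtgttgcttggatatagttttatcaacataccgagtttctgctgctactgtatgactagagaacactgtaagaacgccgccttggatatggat
Ankub1: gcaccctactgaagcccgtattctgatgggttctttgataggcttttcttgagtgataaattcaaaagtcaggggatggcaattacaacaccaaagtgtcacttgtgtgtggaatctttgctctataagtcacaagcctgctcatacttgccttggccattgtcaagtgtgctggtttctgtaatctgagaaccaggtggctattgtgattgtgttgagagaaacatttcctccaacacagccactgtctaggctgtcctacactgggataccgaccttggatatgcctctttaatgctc

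Many motile cilia genes fell at high stretch without CO2 relative to low stretch, with the largest falls in Fam216b, Ankub1, Kcnrg, the radial spoke gene Rsph4a and the dynein gene Dnah12. Of the 42, 23 were called lower and 1 (Rfx2) higher, against 9.56% of all genes called lower, 8.72% called higher and 18.3% called in either direction. Their median log2 change was -0.23, against -0.02 over all genes, and 38 of the 42 changes were negative. Without Fam216b, Ankub1 and Kcnrg, which earlier results of these data had already shown among the large falls, 20 of 39 were lower and the median was -0.22. In bulk lung, fewer ciliated cells and less RNA per ciliated cell cannot be told apart. With low stretch normocapnia replicate 3 left out, 15 genes were called, all of them lower. With a block for replicate number 12 were called, and whether those numbers paired the arrays was not settled.

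**Figure D1:**
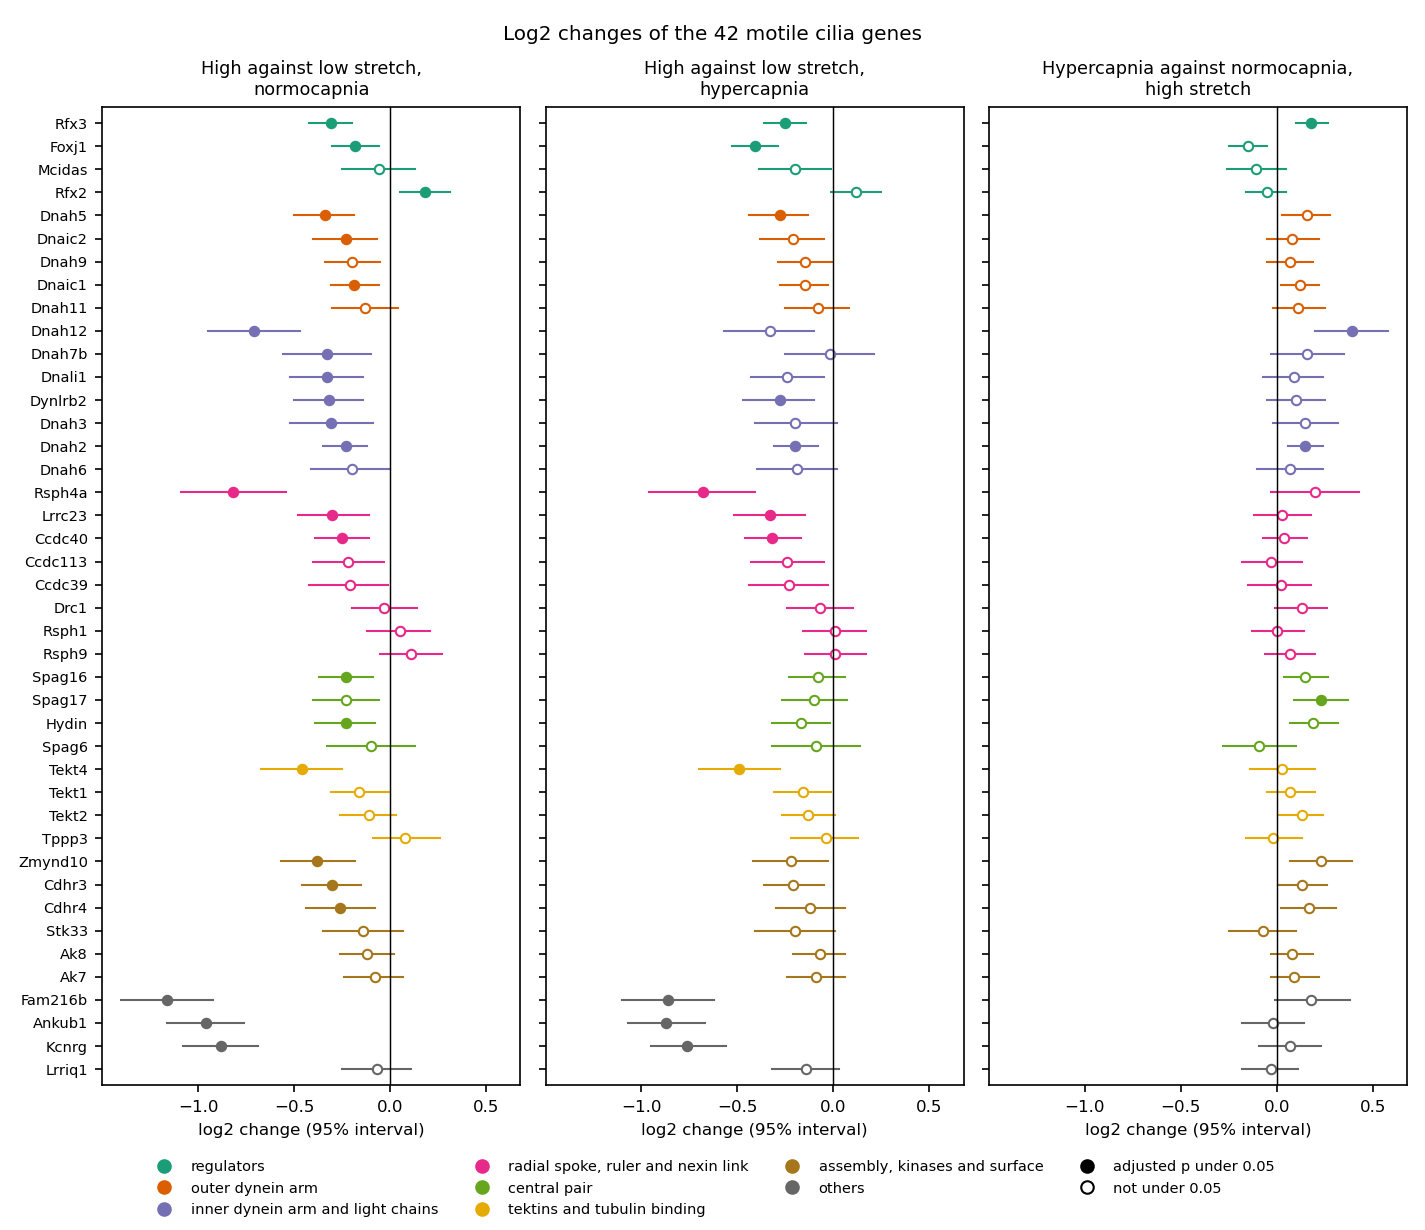
Log2 change of each of the 42 genes (points) with its 95% interval (lines), grouped and coloured by role, for high against low stretch in normocapnia, high against low stretch in hypercapnia, and hypercapnia against normocapnia at high stretch. Filled points have an adjusted p under 0.05: 24 in the first panel, 12 in the second and 4 in the third.

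The 3 largest falls were in genes for which no part of the axoneme is named here. Fam216b ran from 7.17 to 7.74 (median 7.45) in high stretch normocapnia, against 8.68, 8.72, 8.70, 8.72 and 8.09 in low stretch normocapnia. The groups did not overlap, and the log2 change was -1.16 ± 0.12 (SE), a 2.24-fold fall with an adjusted p of 7.88e-09. Low stretch replicate 5 stood well under the other 4 low stretch arrays and still above every high stretch array.

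Ankub1, an ankyrin repeat and ubiquitin domain gene, ran from 4.75 to 5.21 (median 4.93) in high stretch normocapnia, against 5.87, 5.74, 5.98, 6.19 and 5.77 in low stretch normocapnia. Its log2 change was -0.96 ± 0.10 (SE, adjusted p = 9.44e-09), with no overlap. The probe set was dim, with all 10 high stretch values below the mean of 10 spermatid genes on these arrays (5.23 to 5.51), and no fold is given because a signal this low can understate one. Kcnrg, which encodes a regulator of potassium channels, ran from 6.69 to 7.25 (median 6.96) in high stretch normocapnia, against 8.00, 7.94, 8.02, 7.86 and 7.51 in low stretch normocapnia. It fell 1.84-fold (adjusted p = 2.90e-08), again with no overlap. Lrriq1, grouped with these 3, differed by only -0.07 ± 0.09.

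**Figure D2:**
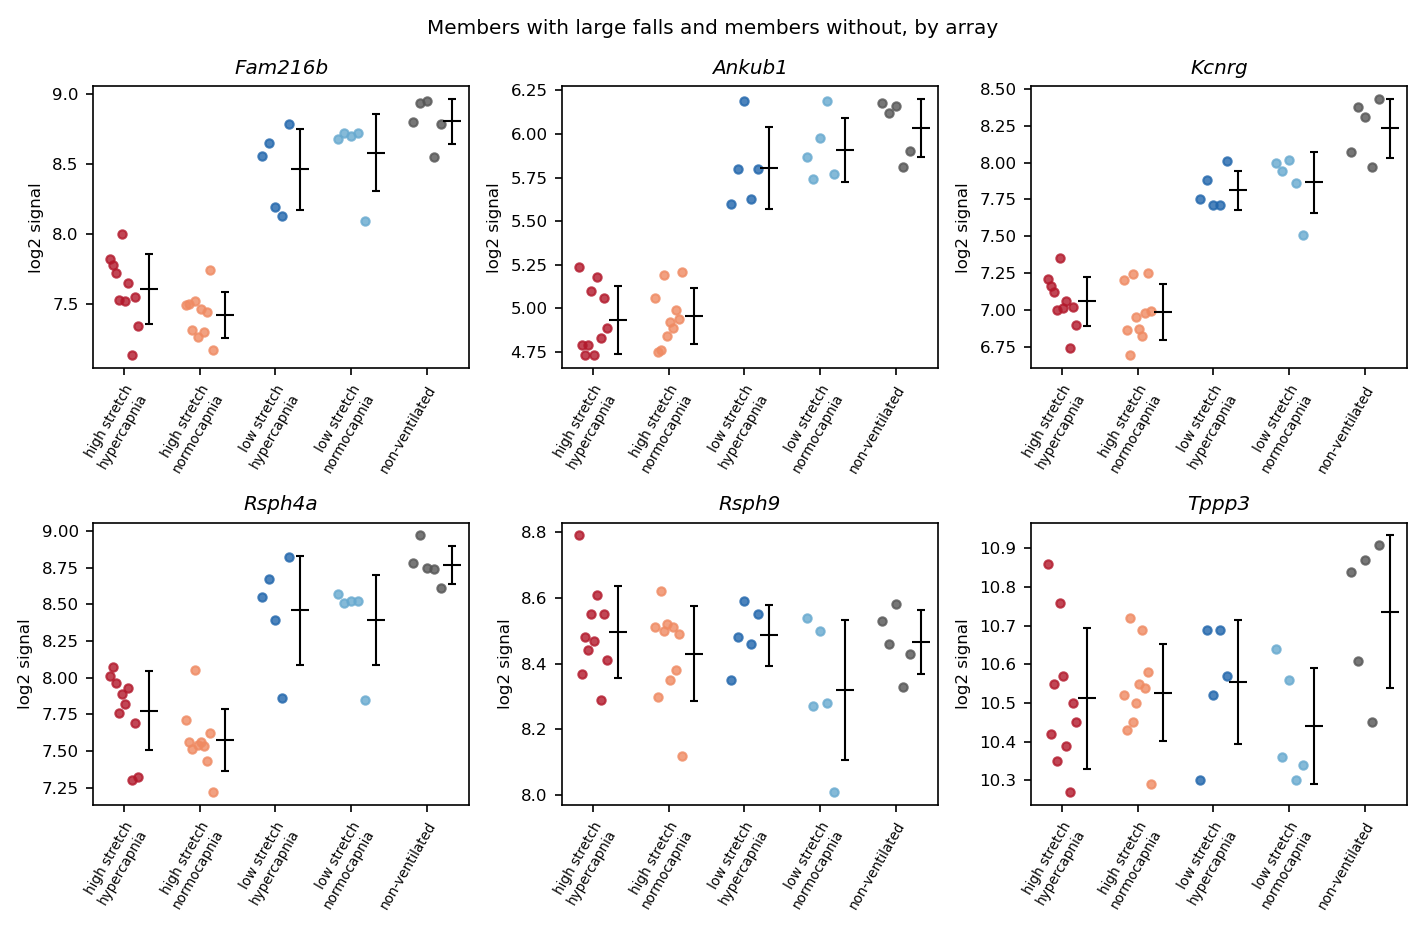
Log2 signal of Fam216b, Ankub1, Kcnrg, Rsph4a, Rsph9 and Tppp3 on each array (points) in the 5 groups, with the group mean and SD (black). In the first 3 genes every high stretch array lies below every low stretch array, whereas Rsph9 and Tppp3 overlap fully.

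Inner dynein arm genes were the role with the most calls. Of 7 inner arm and light chain genes 6 were called lower, led by the inner arm heavy chain Dnah12. It ran from 8.94 to 9.56 (median 9.09) in high stretch normocapnia, against 9.80, 9.91, 9.99, 10.09 and 9.56 in low stretch normocapnia, a log2 change of -0.71 ± 0.12 (SE, adjusted p = 3.32e-05). The groups met at a single value, 9.56. The other 5 called, the heavy chains Dnah7b (-0.33), Dnah3 (-0.31) and Dnah2 (-0.23), the light intermediate chain Dnali1 (-0.33) and the roadblock light chain Dynlrb2 (-0.32), lay close together. Dnah6 had a change of -0.20 (adjusted p = 0.187). Dnah3 had 33 probe sets, and all 33 changes were negative, with a median of -0.22 and a range of -0.38 to -0.03. Both Dnah12 probe sets gave nearly the same change (-0.71 and -0.70). Those of Dnah7b differed, with -0.33 for the selected probe set (mean signal 5.93) and -0.09 for the other (mean signal 5.16).

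Of 5 outer arm genes 3 were called lower. The heavy chain Dnah5 averaged 8.57 ± 0.12 in high stretch normocapnia (SD, n = 10) and 8.92 ± 0.13 in low stretch normocapnia (SD, n = 5), a log2 change of -0.34 (limma adjusted p = 0.00139). The other 2 were the intermediate chains Dnaic2 (-0.23) and Dnaic1 (-0.19). The heavy chains Dnah9 (-0.20, adjusted p = 0.0566) and Dnah11 (-0.13, adjusted p = 0.344) were not.

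Within the radial spoke head the 3 measured genes had unlike values. Rsph4a averaged 7.57 ± 0.21 in high stretch normocapnia (SD, n = 10) and 8.39 ± 0.31 in low stretch normocapnia (SD, n = 5), a log2 change of -0.82 ± 0.14 (SE, limma adjusted p = 3.86e-05). Rsph1 and Rsph9, which encode other proteins of the same head, had changes of 0.05 and 0.11, with 95% intervals of -0.12 to 0.21 and -0.05 to 0.27. The spoke gene Lrrc23 (-0.30) and the ruler gene Ccdc40 (-0.25) were called lower. Ccdc39, the partner of Ccdc40 in the ruler, had a change of -0.21 (adjusted p = 0.146), Ccdc113 -0.22 (adjusted p = 0.110) and the nexin link gene Drc1 -0.03 (adjusted p = 0.883).

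Of 4 central pair genes Hydin and Spag16 were called lower (-0.23 each). Spag17 had the same change of -0.23 with an adjusted p of 0.0548, and Spag6 had -0.10. Of the tektins, Tekt4 fell by 0.46 on the log2 scale (adjusted p = 0.00149), while Tekt1 (-0.16) and Tekt2 (-0.11) were not called. The tubulin-binding gene Tppp3, a common ciliated cell marker, had a change of 0.08 and a 95% interval of -0.09 to 0.26.

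Among the remaining genes, Zmynd10, needed to preassemble dynein arms in the cytoplasm, fell by 0.38, and the cadherin-related surface genes Cdhr3 and Cdhr4 by 0.30 and 0.26. The adenylate kinases Ak7 (-0.08) and Ak8 (-0.12) and the kinase gene Stk33 (-0.14) were not called. Across the 42 genes the change had a Spearman rho of 0.04 with genomic span, given as a description over genes that share the same arrays.

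The regulators did not move as one. Rfx3 ran from 7.62 to 7.95 (median 7.77) in high stretch normocapnia, against 8.02, 8.16, 8.08, 8.14 and 8.11 in low stretch normocapnia, without overlap and with a log2 change of -0.31 ± 0.05 (SE, adjusted p = 6.66e-05). Foxj1 ran from 7.66 to 7.90 (median 7.80) in high stretch normocapnia, against 8.15, 8.09, 7.89, 8.06 and 7.71 in low stretch normocapnia. Its change of -0.18 ± 0.06 had an adjusted p of 0.0246, and the groups overlapped through low stretch replicates 3 and 5. That call was lost when low stretch replicate 1, 2 or 4 was left out (adjusted p = 0.119, 0.0940 and 0.0856). With all arrays of these groups kept, it was lost when only the compared groups were fitted (adjusted p = 0.0604). The same held with arrays centred on their median (adjusted p = 0.0759) and with a block for replicate number (adjusted p = 0.0962).

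Rfx2 was the exception in direction, at 7.73 ± 0.11 in high stretch normocapnia (SD, n = 10) and 7.55 ± 0.13 in low stretch normocapnia (SD, n = 5). Its change of 0.18 was near the threshold (limma adjusted p = 0.0476) and lost the call in 10 of the 15 fits that left out 1 array. Mcidas had a change of -0.06 (adjusted p = 0.771). In 5 of the 42 genes (Fam216b, Ankub1, Kcnrg, Rfx3 and Ccdc40) every high stretch array lay below every low stretch array, against 2.85% of all genes.

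**Figure D3:**
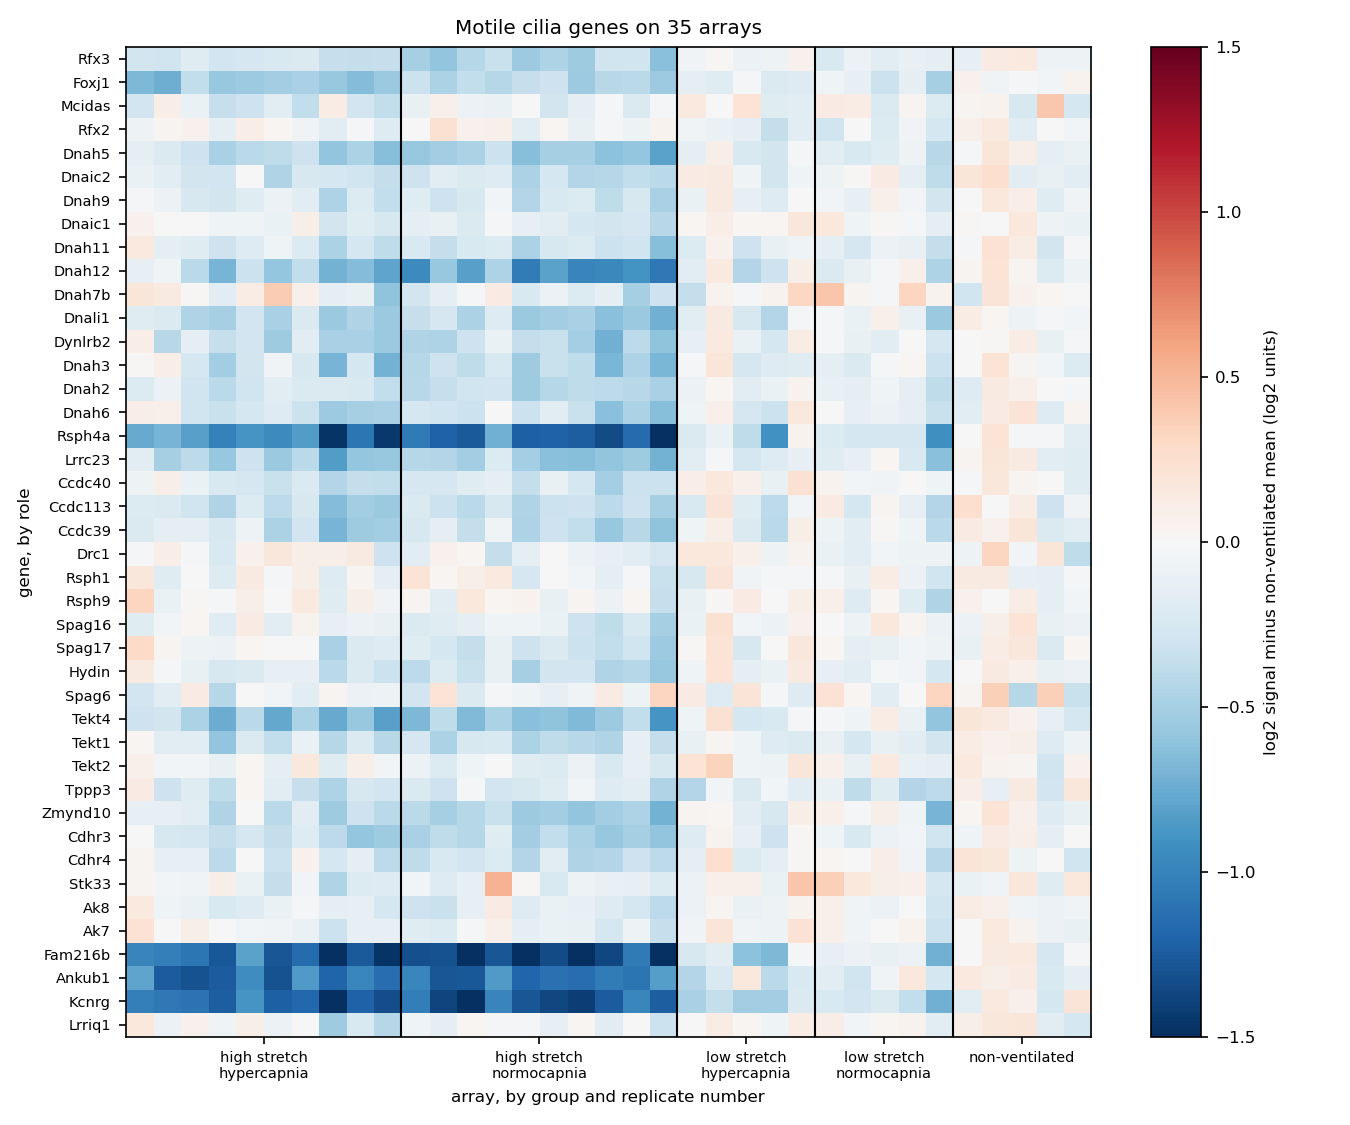
Log2 signal minus the gene's non-ventilated mean for the 42 genes (lines, ordered by role) on the 35 arrays (columns, by group and replicate number), with the scale ending at 1.5 log2 units each way. Fam216b, Ankub1, Kcnrg and Rsph4a stand out as the deepest falls in the high stretch columns, followed by Dnah12 in high stretch normocapnia only. Drc1, Rsph1, Rsph9 and Spag6 stay near 0.

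The same comparison made within hypercapnia gave fewer calls. Of the 42 genes 12 were called lower and 0 higher at high stretch, where 4.69% of all genes were lower, 5.43% higher and 10.1% called in either direction. The median change was -0.20, against -0.03 over all genes, and 39 changes were negative. Without Fam216b, Ankub1 and Kcnrg 9 of 39 were lower.

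Ankub1 ran from 4.73 to 5.24 (median 4.86) in high stretch hypercapnia, against 5.60, 5.80, 6.19, 5.63 and 5.80 in low stretch hypercapnia, a log2 change of -0.87 (adjusted p = 1.20e-07). For Kcnrg the range was 6.74 to 7.35 (median 7.04), against 7.75, 7.88, 7.71, 7.71 and 8.01 in low stretch hypercapnia, a change of -0.76 (adjusted p = 9.73e-07). Fam216b ran from 7.13 to 8.00 (median 7.60) in high stretch hypercapnia, against 8.56, 8.65, 8.19, 8.13 and 8.79 in low stretch hypercapnia, a change of -0.86 (adjusted p = 5.01e-06). None of these 3 overlapped between the groups.

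Foxj1 had its larger stretch difference here. It ran from 7.48 to 7.84 (median 7.65) in high stretch hypercapnia, against 8.06, 8.03, 8.19, 7.99 and 8.02 in low stretch hypercapnia. The log2 change was -0.41 ± 0.06 (SE), 1.33-fold, with an adjusted p of 8.80e-06 and no overlap. Rfx3 also fell without overlap (-0.25, adjusted p = 0.00169), Rfx2 had a change of 0.12 (adjusted p = 0.242), and Mcidas one of -0.20 (adjusted p = 0.177).

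Of the structural genes, Rsph4a fell by 0.68, Tekt4 by 0.49, Lrrc23 by 0.33 and Ccdc40 by 0.32, and Dnah5, Dynlrb2 and Dnah2 by 0.28, 0.28 and 0.20. The Lrrc23 call was lost without low stretch hypercapnia replicate 2 (adjusted p = 0.0549). It was also lost with a block for replicate number (adjusted p = 0.133), though those numbers gave no steady pairing. Dnah12, among the largest falls in normocapnia, had a change of -0.33 here (adjusted p = 0.0633). No central pair gene and no gene of assembly, kinases and surface was called. In 6 genes (Ankub1, Kcnrg, Fam216b, Foxj1, Tekt4 and Rfx3) all high stretch arrays lay below all low stretch arrays, against 0.908% of all genes.

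CO2 at high stretch was accompanied by small rises in a few of the genes. Of the 42, 4 were called higher and 0 lower, against 2.49% of all genes called higher, 3.07% lower and 5.56% in either direction. The median change was 0.09, against -0.01 over all genes, and 33 of 42 were positive. The count of calls was 11 with array weights and 2 with all probe sets tested. The falls at high stretch in normocapnia and these changes share the high stretch normocapnia arrays, so that their opposite signs are not independent.

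Rfx3 ran from 7.90 to 8.07 (median 7.97) in high stretch hypercapnia and from 7.62 to 7.95 (median 7.77) in high stretch normocapnia. The log2 change was 0.18 ± 0.04 (SE), with an adjusted p of 0.00840, and the groups overlapped between 7.90 and 7.95. Dnah12 ran from 9.23 to 9.97 (median 9.52) in high stretch hypercapnia and from 8.94 to 9.56 (median 9.09) in high stretch normocapnia, a change of 0.39 ± 0.10 (SE, adjusted p = 0.00986). Its second probe set gave 0.45.

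Spag17 ran from 6.90 to 7.67 (median 7.35) in high stretch hypercapnia and from 6.84 to 7.27 (median 7.09) in high stretch normocapnia. Its change was 0.23 ± 0.07 (SE, adjusted p = 0.0436), and the groups overlapped widely. Dnah2 had a change of 0.15 (adjusted p = 0.0496). Of the 20 fits that left out 1 array, the Dnah2 call was lost in 15 and the Spag17 call in 13. The number of called genes dropped to 2 without high stretch normocapnia replicate 5, 8 or 9, or without high stretch hypercapnia replicate 1, 2, 5, 6 or 7. Both calls were also lost without high stretch normocapnia replicate 7 or 10, or high stretch hypercapnia replicate 3, where 3 genes were called.

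Foxj1 lay on the other side of 0. Its change with CO2 at high stretch was -0.15 ± 0.05 (SE), with an adjusted p of 0.0574, and the high stretch hypercapnia median of 7.65 stood below the high stretch normocapnia median of 7.80. Rfx2 (-0.05) and Mcidas (-0.11) were not called either. Fam216b, Ankub1 and Kcnrg had changes of 0.18, -0.02 and 0.07, all with adjusted p of 0.332 or more. Of the 33 Dnah3 probe sets, 32 were positive, with a median of 0.12, and its selected probe set had a change of 0.15 (adjusted p = 0.392). In 0 of the 42 genes did the groups separate fully, against 0.176% of all genes with every hypercapnia array above and 0.261% with every one below.

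**Figure D4:**
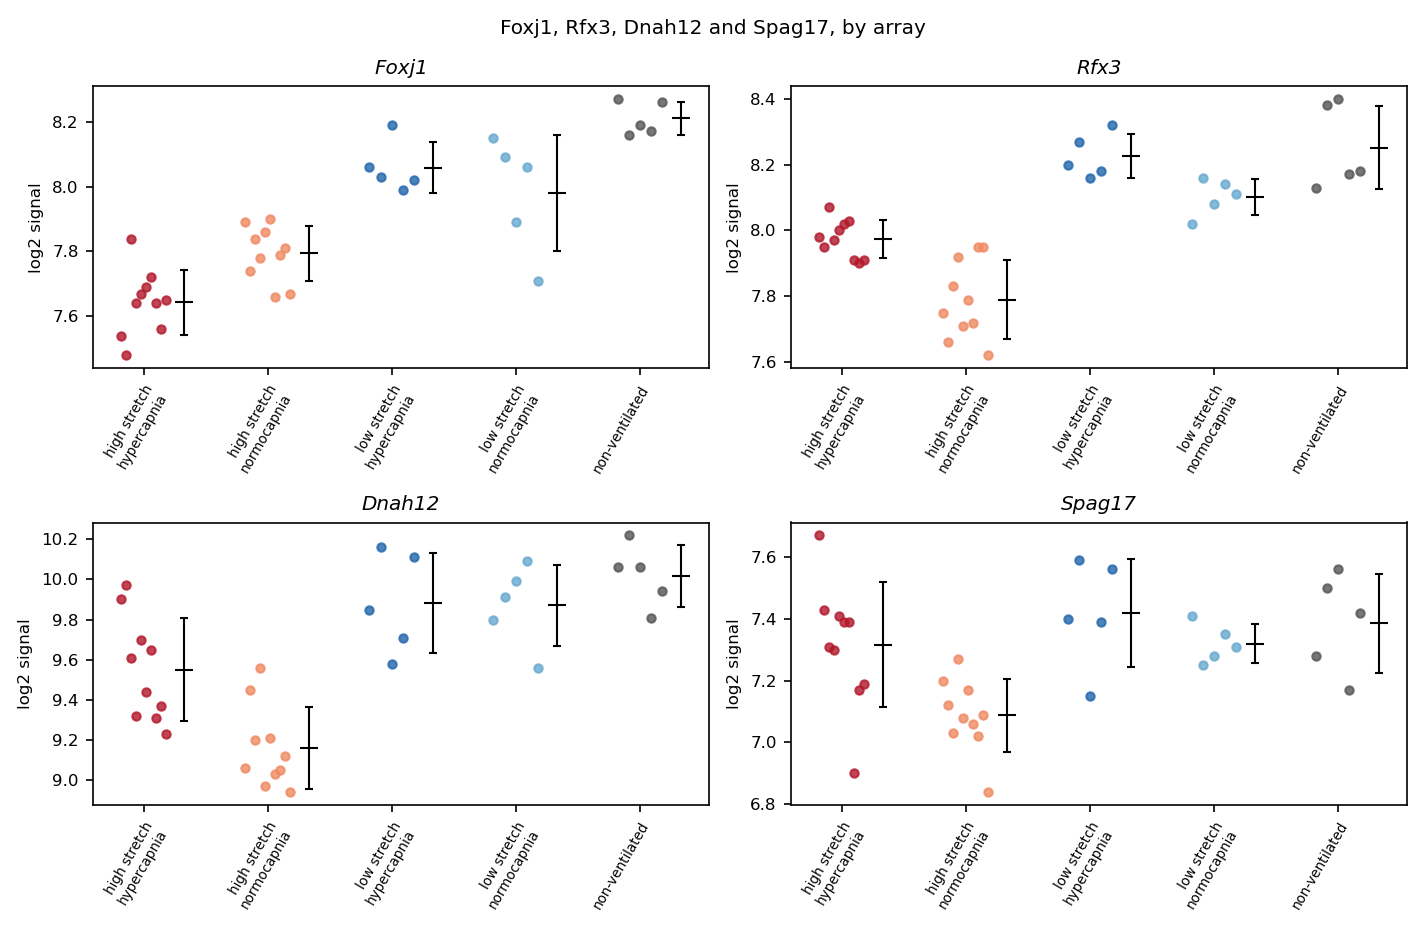
Log2 signal of Foxj1, Rfx3, Dnah12 and Spag17 on each array (points) in the 5 groups, with the group mean and SD (black). Within high stretch, hypercapnia arrays lie mostly above normocapnia arrays for Rfx3 and Dnah12, overlap widely for Spag17, and lie mostly below for Foxj1.

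At low stretch CO2 gave no call in these genes by limma. The groups held 5 arrays each, against 10 each at high stretch, so that small changes were easier to miss here. None of the 42 passed, against 0.115% of all genes called, and 1 had an unadjusted p under 0.05, namely Rfx3 (0.13, unadjusted p = 0.0498). The median change was 0.06, against 0.01 over all genes, with 34 positive. Rsph9 (0.17) and Tekt2 (0.14) followed by p, while Foxj1 (0.08), Mcidas (0.03), Rfx2 (0.00), Fam216b (-0.12), Ankub1 (-0.11) and Kcnrg (-0.05) had adjusted p of 0.816 or more.

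Whether the effect of CO2 differed between the stretch levels was tested directly. The interaction was called for 0 of the 42 genes and for 0 of all 19938 by limma, with 2 of the 42 under an unadjusted p of 0.05. These were Foxj1 (-0.23, unadjusted p = 0.00950) and Dnah12 (0.38, unadjusted p = 0.0286), both with adjusted p of 0.997. The next by p was Dnah7b (0.31). Fam216b (0.30), Kcnrg (0.12) and Ankub1 (0.08) had unadjusted p of 0.0803 or more, and Rfx3 (0.06), Rfx2 (-0.05) and Mcidas (-0.14) had unadjusted p of 0.286 or more.

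Between low stretch normocapnia and non-ventilated mice, 2 of the 42 genes were called lower and 0 higher, against 5.17% of all genes called lower, 6.63% higher and 11.8% in either direction. A share of this size is near the background. The median change was -0.13, against -0.01 over all genes, and 38 changes were negative. Foxj1 had values of 8.15, 8.09, 7.89, 8.06 and 7.71 in low stretch normocapnia, against 8.27, 8.16, 8.19, 8.17 and 8.26 in non-ventilated mice. All 5 low stretch arrays lay below all 5 non-ventilated ones, as in 3.54% of all genes, and the change was -0.23 (adjusted p = 0.0218). Kcnrg changed by -0.36 (adjusted p = 0.0255), with values of 8.07, 8.38, 8.31, 7.97 and 8.43 in non-ventilated mice.

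Those 2 calls depended on which arrays were fitted. Without low stretch normocapnia replicate 5 neither passed, and without non-ventilated replicate 2, 3 or 5 Foxj1 alone passed. Foxj1 also missed the threshold without non-ventilated replicate 1 (adjusted p = 0.0590) or low stretch normocapnia replicate 3 (adjusted p = 0.0557). When only the arrays of the compared groups were fitted, both calls were lost (adjusted p = 0.146 for Foxj1 and 0.0858 for Kcnrg). Rfx3 (-0.15), Rfx2 (-0.17), Mcidas (-0.03), Fam216b (-0.22) and Ankub1 (-0.13) were not called. Neutrophil markers moved in this comparison, with 13 of 15 called higher and a median change of 2.14. Their mean per array ran from 9.41 to 10.19 in low stretch normocapnia and from 7.05 to 8.76 in non-ventilated mice, and its part in the changes of the cilia genes was not tested. In high against low stretch in normocapnia 0 of those 15 markers were called by limma, and 0 had an unadjusted p under 0.05.

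Set against spontaneous breathing, high stretch gave the lowest values. In high stretch normocapnia 30 of the 42 genes were called lower than in non-ventilated mice and 0 higher, where 18.9% of all genes were lower, 17.4% higher and 36.3% called in either direction. In high stretch hypercapnia 24 were lower and 0 higher, where 17.6% of all genes were lower, 16.3% higher and 33.8% called in either direction. The median changes were -0.34 and -0.23, against -0.03 and -0.04 over all genes, and both comparisons use the same 5 non-ventilated arrays. All 5 outer arm genes were called lower in high stretch normocapnia and 3 of 5 in high stretch hypercapnia. Other ciliary lists were also often lower, given here with normocapnia first. Of 65 other axoneme genes 36 and 33 were lower and 3 and 2 higher. Of 36 ciliated cell markers 20 and 16 were lower, with 1 higher in each. Of 51 intraflagellar transport and primary cilium genes 28 and 30 were lower, with 1 higher in each.

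Markers of other cell types moved in the same 2 comparisons, where 18.9% and 17.6% of all genes were lower and 17.4% and 16.3% higher. Of 20 alveolar markers 10 were lower and 1 higher in high stretch normocapnia, and 9 lower and 1 higher in high stretch hypercapnia. Of 23 club and secretory markers 8 and 9 were lower and 0 higher, with a median change of -0.15 in both. Pan-epithelial genes were higher in 10 and 11 of 17 and lower in 4 and 3. Neutrophil markers were higher in 13 of 15 in both, with median changes of 2.71 and 2.14, and their mean per array ran from 9.33 to 10.37 in high stretch normocapnia and from 9.16 to 10.52 in high stretch hypercapnia, against 7.05 to 8.76 in non-ventilated mice. The part of these changes in those of the cilia genes was not tested.

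Fam216b fell 2.61-fold and 2.30-fold in the 2 comparisons, Kcnrg 2.37-fold and 2.26-fold, and Rsph4a 2.29-fold and 2.00-fold. The dim Ankub1 had log2 changes of -1.08 and -1.10. Foxj1 changed by -0.41 and -0.56, Rfx3 by -0.46 and -0.28, Rfx2 by 0.01 and -0.04, and Mcidas by -0.09 and -0.20, where neither Rfx2 nor Mcidas was called. In 16 genes all high stretch normocapnia arrays lay below all non-ventilated arrays, against 7.91% of all genes, and in 8 all high stretch hypercapnia arrays did, against 5.98%.

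The mean over the 42 genes on each array gives the order of the groups. It was 7.77 ± 0.12 in high stretch hypercapnia (SD, n = 10), 7.68 ± 0.09 in high stretch normocapnia (n = 10), 8.00 ± 0.11 in low stretch hypercapnia (n = 5), 7.95 ± 0.13 in low stretch normocapnia (n = 5) and 8.07 ± 0.09 in non-ventilated mice (n = 5). Neighbours in this order differed by about 1 SD or less, apart from the step between high stretch hypercapnia and low stretch normocapnia. The lowest group mean of a gene was that of high stretch normocapnia in 31 genes, high stretch hypercapnia in 7 and low stretch normocapnia in 4, and the highest was that of non-ventilated mice in 27.

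**Figure D5:**
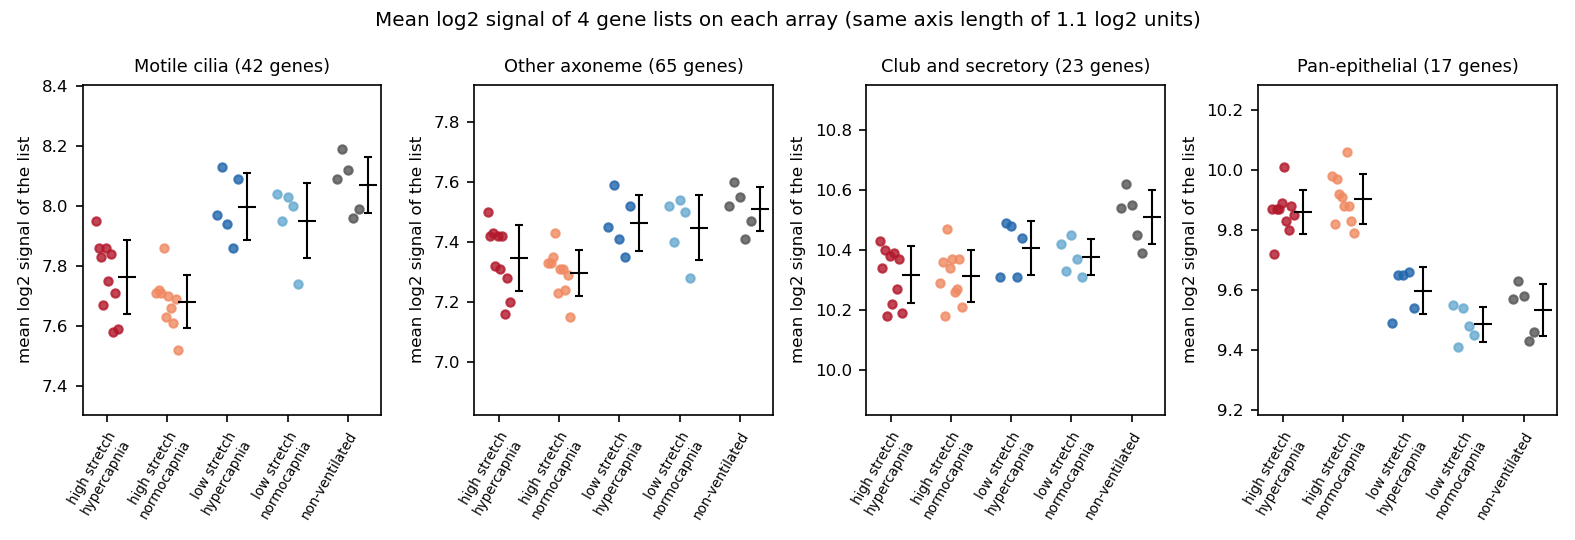
Mean log2 signal per array (points) of the 42 motile cilia genes, 65 other axoneme genes, 23 club and secretory cell markers and 17 pan-epithelial genes in the 5 groups, with group mean and SD (black) and axes of equal length. Both cilia lists are lower at high than at low stretch with partly overlapping arrays, the club list overlaps more, and the pan-epithelial list is higher at high stretch without overlap.

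Within groups the genes also varied together. After removal of group means and scaling of each gene, 1 component held 52.6% of the remaining variance, and 40 of the 42 genes loaded on it with the same sign. Spag6 and Mcidas had the opposite sign, and Foxj1 was near 0 (0.04, against 0.20 for Dnah5). A single array was often low for most genes: low stretch normocapnia replicate 5 was the lowest of its group in 33 of 42 genes, high stretch normocapnia replicate 10 in 26, non-ventilated replicate 4 in 23, high stretch hypercapnia replicate 8 in 22 and low stretch hypercapnia replicate 4 in 21. Without low stretch normocapnia replicate 5 the stretch comparison in normocapnia had 25 genes lower and 0 higher.

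Other ciliary genes, listed by name, were read in the same fit. Of 65 other axoneme genes 21 were called lower and 0 higher at high stretch in normocapnia, with a median change of -0.16. Cfap61 (-0.48), Cfap161 (-0.40) and Ttc29 (-0.40) had the largest changes. Of 36 further ciliated cell markers 13 were lower and 0 higher, led by Bbof1 (-0.74), Ppil6 (-0.68) and Sntn (-0.61), and 1 gene, Cfap221, is in both lists. Dynein arm docking and assembly genes were lower in 6 of 20 and higher in 1, with Ttc25, a docking complex gene, at -0.56, Dnaaf4 at -0.53 and Ccdc151 at -0.48.

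Of 28 genes of multiciliogenesis and centrioles 5 were lower and 1 higher. Myb, which acts early in multiciliated cell formation and also in blood cells, fell by 0.60 (adjusted p = 5.62e-08), Gmnc, which encodes the geminin relative GEMC1 and acts upstream of Foxj1, by 0.53, and the deuterosome gene Ccdc78 by 0.36. Intraflagellar transport and primary cilium genes, which non-motile cilia use as well, were lower in 16 of 51 and higher in 0, with a median of -0.13. Wdr19 (-0.61), Bbs9 (-0.51) and Ttc21b (-0.49) had the largest changes. Against these counts stand the 9.56% of all genes called lower.

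Markers of neighbouring epithelial cells were read against the same shares of all genes, 9.56% lower and 8.72% higher. Of 23 club and secretory markers 1 was lower and 1 higher at high stretch in normocapnia, with a median of -0.09, and their mean per array ran from 10.18 to 10.47 in high stretch normocapnia and from 10.31 to 10.45 in low stretch normocapnia. Of 20 alveolar markers 3 were lower and 1 higher (median -0.02), and of 11 basal and neuroendocrine markers 0 were lower and 1 higher, shares near those of all genes at these list sizes. The club list also leaned downward, with 17 of 23 changes negative. Pan-epithelial genes rose in 10 of 17 (58.8%) and fell in 1. The keratins Krt8 (1.62), Krt18 (1.44) and Krt19 (1.22) led them, and the mean of that list ran from 9.79 to 10.06 in high stretch normocapnia and from 9.41 to 9.55 in low stretch normocapnia. The part of this rise in the changes of the cilia genes was not tested. Genes of spermatids, cells that also build a motile axoneme, were called in 0 of 10 by limma, with 0 under an unadjusted p of 0.05. They were dim in these lungs, with a list mean of 5.37 in high stretch normocapnia and 5.35 in low stretch normocapnia, which limits what a change in them could show.

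In hypercapnia, where 4.69% of all genes were lower and 5.43% higher at high stretch, 11 of 36 ciliated markers (30.6%), 4 of 20 docking and assembly genes (20%) and 5 of 28 multiciliogenesis and centriole genes (17.9%) were lower. Of the other axoneme genes 5 of 65 (7.69%) and of the intraflagellar transport and primary cilium genes 5 of 51 (9.8%) were lower. Changes were negative in 58 of these 65 and 44 of these 51 genes, against 11991 of all 19938. The medians were -0.13 and -0.08, against -0.03 over all genes. Pan-epithelial genes were higher in 8 of 17 and lower in 3, and 0 of the 23 club markers were called by limma (3 with an unadjusted p under 0.05). With CO2 at high stretch, 3 of the 65 axoneme genes were higher (4.62%, against 2.49% of all genes) and 1 was lower (1.54%, against 3.07%), which is near the background. The 3 were Dnah10 (0.34), Cfap43 (0.29) and Ttc29 (0.24), and the 1 lower was Gas8 (-0.16). None of the 36 ciliated markers was called by limma there, and 5 had an unadjusted p under 0.05. Dnah10 encodes another inner arm heavy chain.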

How the data were processed

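RNA of 35 mouse lungs was read on 1 Affymetrix array each. The deposited values are log2 signals made with RMA; per the submitters' processing notes Affymetrix Expression Console and Partek were also used, with no versions or roles stated. Depth does not apply to arrays, and their number limits the precision. The table held 35557 probe sets, of which 21789 had 1 gene symbol, 1621 several and 12147 none in the platform table used, which left 19938 genes and no filter on level. No array was a copy of another.

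Group means were fitted by lmFit and eBayes of limma 3.58.1 (R 4.3.3) over all 35 arrays, with 8 contrasts, two-sided, and Benjamini-Hochberg adjustment within each. The members and lists were chosen with earlier results of these data known. Named genes are, per comparison, the 8 largest changes among called members or the 3 smallest p where none passed, with Foxj1, Mcidas, Rfx2, Rfx3, Fam216b, Ankub1 and Kcnrg throughout, the 3 largest called changes of other lists, and further members to account for all 42. Symbols are those of the platform table (Dnaic1 and Dnaic2 are now Dnai1 and Dnai2). Promoters come from RefSeq (GRCm38.p6). On simulated data, the stretch comparison in normocapnia recovered 51.2% of changes of 0.3, 95% of 0.6 and 97.5% of 1 log2 unit over 19938 genes. For CO2 at high stretch these shares were 61.3, 98.8 and 97.5%. Of the calls made, 3.7% and 9.24% fell on unchanged genes. The simulated noise was independent between genes and few genes were shifted, so these shares need not hold for the real arrays. Replicate numbers shared between groups gave no steady pairing of arrays: correlations of deviations within numbers lay between -0.34 and 0.38. For high against low stretch in normocapnia all 5 were positive (0.04 to 0.26). The same held for low stretch normocapnia against non-ventilated mice (0.02 to 0.19). Whether arrays were paired there was not settled. Alternatives were fits of the compared groups alone, array weights, a replicate block, trended and robust eBayes, genes above the median, every probe set or the gene-wise mean of them, centred arrays, a second quantile normalization, the array spread as a covariate, and leaving out each array. The count without Fam216b, Ankub1 and Kcnrg and the paired X-box elements were additions made once results were known.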

Additional observations from a re-analysis of the deposited data

Results flagged for a closer look

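Of 40 groups of arrays examined for an array far from the rest (the 5 groups of the genes given by array and of the mean over the list), 1 was singled out, where chance alone would single out about 1 in 20. It was Fam216b in low stretch normocapnia, where replicate 5 read 8.09 and the nearest of the other 4 arrays 8.68, a gap that made up 0.94 of the group's range. The same array was the lowest of its group in 33 of the 42 genes. Without it the stretch comparison in normocapnia called 25 genes, all lower.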

How the results depend on the processing

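For high against low stretch in normocapnia the count of called genes was 24 and stayed between 17 and 27 under the settings other than the block, with 15 to 25 when 1 array was left out. With the replicate block it was 12, and whether replicate numbers paired the arrays of this comparison was not settled. For high stretch hypercapnia against non-ventilated mice the block gave 15 in place of 24. For high against low stretch in hypercapnia it gave 8 in place of 12. The cause of these lower counts was not tested. Ranges with 1 array left out were 8 to 17 for stretch in hypercapnia, 28 to 32 and 18 to 26 for high stretch normocapnia and hypercapnia against non-ventilated mice, 2 to 5 for CO2 at high stretch, 0 to 3 for low stretch against non-ventilated mice, and 0 to 0 for CO2 at low stretch and the interaction. CO2 at high stretch gave 11 calls with array weights and 2 with all probe sets, against 4. Low stretch against non-ventilated gave 0 calls when only those arrays were fitted, 5 after a second quantile normalization and 1 without Fam216b, Ankub1 and Kcnrg, against 2. Called changes were followed singly only for the 8 largest per comparison and for Foxj1, Mcidas, Rfx2, Rfx3, Fam216b, Ankub1 and Kcnrg. Of these 45 called changes, 7 lost the call in some setting and 0 turned direction. Smaller called changes were not followed singly, so this share does not cover them. Directions turned only in values near 0 that were not called. Array weights gave Rfx2 -0.03 for CO2 at low stretch, 0.01 for the interaction and -0.03 for high stretch normocapnia against non-ventilated mice. The array spread as a covariate gave Rfx2 -0.01 for CO2 at low stretch and 0.01 for high stretch hypercapnia against non-ventilated mice, and Mcidas 0.01, 0.00 and 0.01 for low stretch against non-ventilated, stretch in normocapnia and high stretch normocapnia against non-ventilated. With 1 array left out, Rfx2 ran from -0.03 to 0.05 for CO2 at low stretch and for high stretch normocapnia against non-ventilated mice. Mcidas ran from -0.10 to 0.07 for low stretch against non-ventilated, -0.16 to 0.01 for high stretch normocapnia against non-ventilated and -0.02 to 0.08 for CO2 at low stretch, and Ankub1 from -0.05 to 0.01 for CO2 at high stretch. Foxj1 with CO2 at high stretch, not called in the report, passed under 5 settings. The within-group component held 53.7% with probe sets averaged per gene.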
